A study of Mus musculus with 10 samples.

Results

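The T cells labelled naive and taken from the airways by bronchoalveolar lavage were set against resting CD4+ T cells, by where dimethylation of histone H3 at lysine 4 (H3K4me2) was called along the genome. Peaks of the lavage library and of 2 resting libraries, one from the mediastinal lymph node and one from the spleen, were merged into a region wherever they lay within 500 bp of each other. This gave 23384 regions. The comparison is about the 1536 regions (6.57% of all) called in the lavage library and in neither resting library, and about the 4748 (20.3%) called in both resting libraries and not in the lavage. A further 14691 regions (62.8%) were called in all 3 libraries, 1906 in the lymph node alone, 162 in the spleen alone, and 208 and 133 in the lavage with the lymph node or the spleen. The question set for the comparison was which effector and memory loci mark the lavage cells.

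The lavage library and the lymph node library both carry the label naive T cells, and the spleen library carries the label CD4+ lymphocytes. Resting is the word of the comparison for these cells, not of the labels. The mice of every group carried Gata3-YFP/YFP, a reporter of the Th2 and ILC2 factor GATA3, and had airway inflammation, so no group lacks the allele or the inflammation. Cells were sorted by flow cytometry with antibodies and YFP. The gate behind the word naive, the age and sex of the mice and the number of mice per library are not given in the sources used here. Of the 10 samples in the series, 8 have a peak list, and the 5 that did not define the sets are a lavage and a lymph node library of Th2 cells, the same pair for type 2 innate lymphoid cells (ILC2s), and a thymus CD4+ library. Nothing in the labels says whether libraries came from separate animals, so p-values below measure only the spread between these samples. The lavage cells gave 1 library, so a difference between sites, mice and library preparation cannot be told apart from a difference between cells, and the presence of a region is reported as a description without a test.

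H3K4me2 marks promoters and enhancers that are active or have been opened and can be used again. Naive CD4+ T cells circulate between blood and lymph nodes under factors such as TCF1, LEF1 and BACH2. After antigen, effector and memory cells switch on receptors for homing to inflamed tissue and open cytokine genes, and AP-1 factors are known to take part in opening such sites.

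Start sites were few among the lavage-only regions, and the bases before them are shown here because they differed from those of the resting-only set. Regions of the lavage-only set held 46 annotated start sites of 41 genes, those of the resting-only set 808 of 727 genes and those of the shared set 10318 of 8640 genes. The 200 bases before each start were read from RefSeq sequence of GRCm38.p6, whose coordinates are those of mm10. Capitals mark matches, on either strand, to the AP-1 motif TGANTCA, the RUNX motif TGTGGT, the GATA motif AGATAA, the TCF/LEF motif CTTTGA or the T-box motif GGTGTGA. The first 5 are lavage-only start sites of immune genes with an AP-1 match, the next 3 are lavage-only start sites of effector genes without one, and the last 3 are resting-only start sites. Havcr2 encodes the inhibitory receptor TIM-3, Gzmb granzyme B, Cd80 a ligand of CD28 and CTLA-4, Ccr3 an eotaxin receptor and Tnfrsf8 the receptor CD30. Il21 and Il4 encode cytokines and Itga1 a collagen-binding integrin of resident T cells. Dapl1 is high in naive T cells, Ccr9 encodes a gut-homing receptor and Prf1 perforin.
Havcr2 (chr11:46454731-46454930, plus strand): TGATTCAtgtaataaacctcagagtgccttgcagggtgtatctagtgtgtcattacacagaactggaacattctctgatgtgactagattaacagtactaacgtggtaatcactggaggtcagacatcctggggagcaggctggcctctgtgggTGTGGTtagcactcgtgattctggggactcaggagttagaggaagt
Gzmb (chr14:56262335-56262534, minus strand): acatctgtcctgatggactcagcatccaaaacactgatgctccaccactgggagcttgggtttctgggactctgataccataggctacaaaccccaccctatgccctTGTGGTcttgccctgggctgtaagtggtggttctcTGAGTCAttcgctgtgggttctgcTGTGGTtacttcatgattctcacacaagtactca
Cd80 (chr16:38458733-38458932, plus strand): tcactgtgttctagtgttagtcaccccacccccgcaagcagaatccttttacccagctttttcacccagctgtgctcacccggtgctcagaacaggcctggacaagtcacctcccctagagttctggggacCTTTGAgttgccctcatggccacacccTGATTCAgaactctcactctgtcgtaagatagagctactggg
Ccr3 (chr9:124021771-124021970, plus strand): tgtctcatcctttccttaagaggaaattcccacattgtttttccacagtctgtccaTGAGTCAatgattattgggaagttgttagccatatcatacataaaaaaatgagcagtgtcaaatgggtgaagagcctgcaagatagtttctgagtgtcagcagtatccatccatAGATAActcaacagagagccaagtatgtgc
Tnfrsf8 (chr4:145315165-145315364, minus strand): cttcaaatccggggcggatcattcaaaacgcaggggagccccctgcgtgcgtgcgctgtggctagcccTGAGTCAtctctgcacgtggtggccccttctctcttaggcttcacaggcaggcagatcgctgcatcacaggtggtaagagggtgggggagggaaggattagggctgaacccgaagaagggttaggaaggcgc
Il21 (chr3:37232637-37232836, minus strand): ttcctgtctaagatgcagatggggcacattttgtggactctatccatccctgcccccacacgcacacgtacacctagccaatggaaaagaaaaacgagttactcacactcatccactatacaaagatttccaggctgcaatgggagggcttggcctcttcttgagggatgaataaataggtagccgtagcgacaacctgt
Itga1 (chr13:115101965-115102164, minus strand): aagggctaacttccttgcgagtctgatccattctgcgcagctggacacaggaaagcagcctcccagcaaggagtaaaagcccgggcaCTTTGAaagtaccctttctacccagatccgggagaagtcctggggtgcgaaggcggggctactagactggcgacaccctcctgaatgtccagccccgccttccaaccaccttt
Il4 (chr11:53618666-53618865, minus strand): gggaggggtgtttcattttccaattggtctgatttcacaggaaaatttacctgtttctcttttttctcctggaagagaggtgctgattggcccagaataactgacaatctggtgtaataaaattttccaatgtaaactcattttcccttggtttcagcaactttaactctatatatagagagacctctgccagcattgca
Dapl1 (chr2:59484453-59484652, plus strand): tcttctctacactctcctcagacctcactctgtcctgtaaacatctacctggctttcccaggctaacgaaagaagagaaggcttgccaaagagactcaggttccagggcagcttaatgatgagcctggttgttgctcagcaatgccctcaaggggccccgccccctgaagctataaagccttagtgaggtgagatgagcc
Ccr9 (chr9:123767011-123767210, plus strand): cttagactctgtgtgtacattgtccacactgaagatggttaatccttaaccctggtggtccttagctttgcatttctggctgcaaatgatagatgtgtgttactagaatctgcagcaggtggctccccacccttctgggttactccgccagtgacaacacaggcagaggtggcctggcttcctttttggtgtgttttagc
Prf1 (chr10:61297636-61297835, plus strand): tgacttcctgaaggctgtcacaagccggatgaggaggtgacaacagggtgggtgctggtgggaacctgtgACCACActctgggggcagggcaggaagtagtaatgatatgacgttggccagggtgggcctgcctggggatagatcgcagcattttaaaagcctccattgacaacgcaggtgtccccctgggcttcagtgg

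An AP-1 match was found before 14 of the 46 lavage-only start sites (30.4%). The share was 3.22% of the 808 resting-only start sites, 2.71% of the shared ones, 7.25% of the 9919 in no region and 4.93% of all 21263. The median GC content of these windows was 53.8% in the lavage-only set, 65.0% in the resting-only set, 62.5% in the shared set and 49.5% in no region. Of these 3 other sets, the start sites in no region were nearest to the lavage-only ones in GC content, and their AP-1 share was 7.25%. Over all 21263 start sites the median GC content was 56.5%, nearer still, and the AP-1 share 4.93%. RUNX matches stood before 17.4% of lavage-only starts against 8.29% of resting-only starts and 12% of those in no region. GATA matches (8.7% and 4.08%) and TCF/LEF matches (8.7% and 6.19%) lay closer together, and T-box matches were at 6.52% and 3.09%. A ratio of observed to expected CpG of at least 0.6, a common bound for CpG-rich promoters, was reached by 21.7% of lavage-only, 59.4% of resting-only and 75.2% of shared start sites. The windows overlap the next start site where a gene has several, and a match names letters, not a bound factor. Distal regions were not searched, as no genome sequence was used.

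Library facts bear on every count that follows. The 3 libraries held 23926669 (lavage), 24614614 (lymph node) and 21451958 (spleen) tags and 16725, 21985 and 20418 peaks, with the authors' immunoprecipitation efficiency at 37.34%, 53.68% and 44.18%. When each list was cut to its 16725 peaks of highest tag count, lavage-only regions numbered 2583 and resting-only regions 2173, so which set is larger depends on how many peaks enter. The spleen peaks were called against spleen IgG and the other lists against thymus IgG, per the file headers. The antibody field of both IgG samples names the H3K4me2 antibody, so what these controls held is not settled by the labels. The lavage library had 2 peaks on the Y chromosome and an Xist peak of 196.9 tags, whereas the resting libraries had 0 Y peaks and Xist peaks of 727.2 and 605.5 tags. The Th2 libraries also had Y peaks (2 and 4) beside Xist peaks of 172.7 and 155.0. The ILC2 libraries had Y peaks (5 and 4) and 0.0 tags in Xist peaks. The part of these differences in the results was not tested, but on autosomes alone 1515 lavage-only and 4610 resting-only regions remained. Tags are counts scaled by the authors to 10000000 per library, and the calling minimum was about 40 of them (40.1 in lavage and spleen, 40.2 in lymph node). Some listed peaks lie just under it, 2.01% of peaks in lavage, 1.61% in lymph node and 1.05% in spleen, with lowest values of 35.9, 36.6 and 36.4 tags, so a region not called may still hold signal under that level. Where tags of a Th2, ILC2 or thymus library are given for a region, they are those of the whole peak overlapping it.

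All 3 libraries carried T cell loci, and 3 defining genes of other cell types had no region. The regions over Cd3e, a chain of the T cell receptor complex, summed to 660.8 tags in lavage, 884.9 in lymph node and 682.5 in spleen. Those over Cd4 summed to 1001.0, 1391.5 and 1159.4 tags, while Cd8a had no region. At Foxp3, the regulatory T cell factor, the single region held 203.5 tags in lavage, 144.6 in lymph node and 102.1 in spleen. No region lay over Csf1r (macrophages), Siglecf (eosinophils and alveolar macrophages) or Ncr1 (natural killer cells). Other such genes did overlap a region in all 3 libraries: the B cell gene Cd79a with 764.4, 1391.9 and 1111.8 tags, the myeloid genes Spi1 with 45.1, 357.1 and 276.9 and Cd14 with 169.3, 164.5 and 151.5, and the epithelial gene Epcam with 93.6, 178.8 and 150.6. Of these 4, Cd14 alone was higher in lavage than in both other libraries, by a small margin. Mki67, a gene of dividing cells, held 829.2, 465.2 and 462.4 tags. The summed tags of the B cell list were 295.1 in lavage against 765.8 and 770.6 in lymph node and spleen, with a region called for 3 of its 12 genes in lavage. The other lists gave 1132.6 against 1632.5 and 1373.9 for macrophages and neutrophils, 1428.5 against 3123.2 and 2329.0 for natural killer cells and 228.5 against 880.8 and 648.9 for airway epithelium. Of the 6 lists of other cell types, 2 were higher in lavage. These were the ILC2 list (11159.1 against 8216.1 and 6991.8) and the eosinophil and mast cell list (772.1 against 624.0 and 421.9). The ILC2 list shares genes such as Icos and Il13 with T cell lists. Nmur1 and Calca, which are in no T cell list, also had 1 lavage-only region each. Of the ILC2 list genes, 7 had more lavage-only and 5 more resting-only regions. In the eosinophil and mast cell list the 3 lavage-only regions all lay at Ccr3, which Th2 cells also use. The part of other cell types in the results was not tested. In a mixed sample, fewer cells with a mark and less of it per cell cannot be told apart, and this holds for every value below.

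Among the tall lavage-only regions reported here, 4 lay at or near Il10, Il21 and Ahr, 9 at or near other genes and 1 far from any gene. A region inside Vmp1, an autophagy gene (chromosome 11, 86643674 to 86654559), held 802.5 tags in lavage and had no call in the resting libraries. The 95% exact Poisson interval of that value is 767.0 to 839.2 tags, and it covers counting error only. Il10, which encodes a regulatory cytokine, had 5 lavage-only regions and no other region. Its region over the gene (chromosome 1, 131017429 to 131025912) reached 654.9 tags and the one 18808 bp away reached 713.4. Ahr, the receptor for dietary and microbial aryl compounds, had 4 lavage-only regions, with the tallest at 687.5 tags and 34748 bp outside the gene. Il21 (chromosome 3, 37227494 to 37234431) reached 533.7 tags over its start site, with further lavage-only regions of 284.2, 86.9 and 67.7 tags up to 34995 bp away. Other tall regions were nearest to Wwox (572.6 tags), Lamc1 (558.0), Cd47 (546.3), Elk3 (540.0), Vps54 (455.1), Lmnb1 (451.8), Itpr1 (441.8) and Cobll1 (426.3), with 1 region of 705.5 tags beyond 100 kb of any gene. Most lavage-only regions were far lower than these: the median was 67.1 tags and 591 of 1536 (38.5%) had 80 or more.

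**Figure D1:**
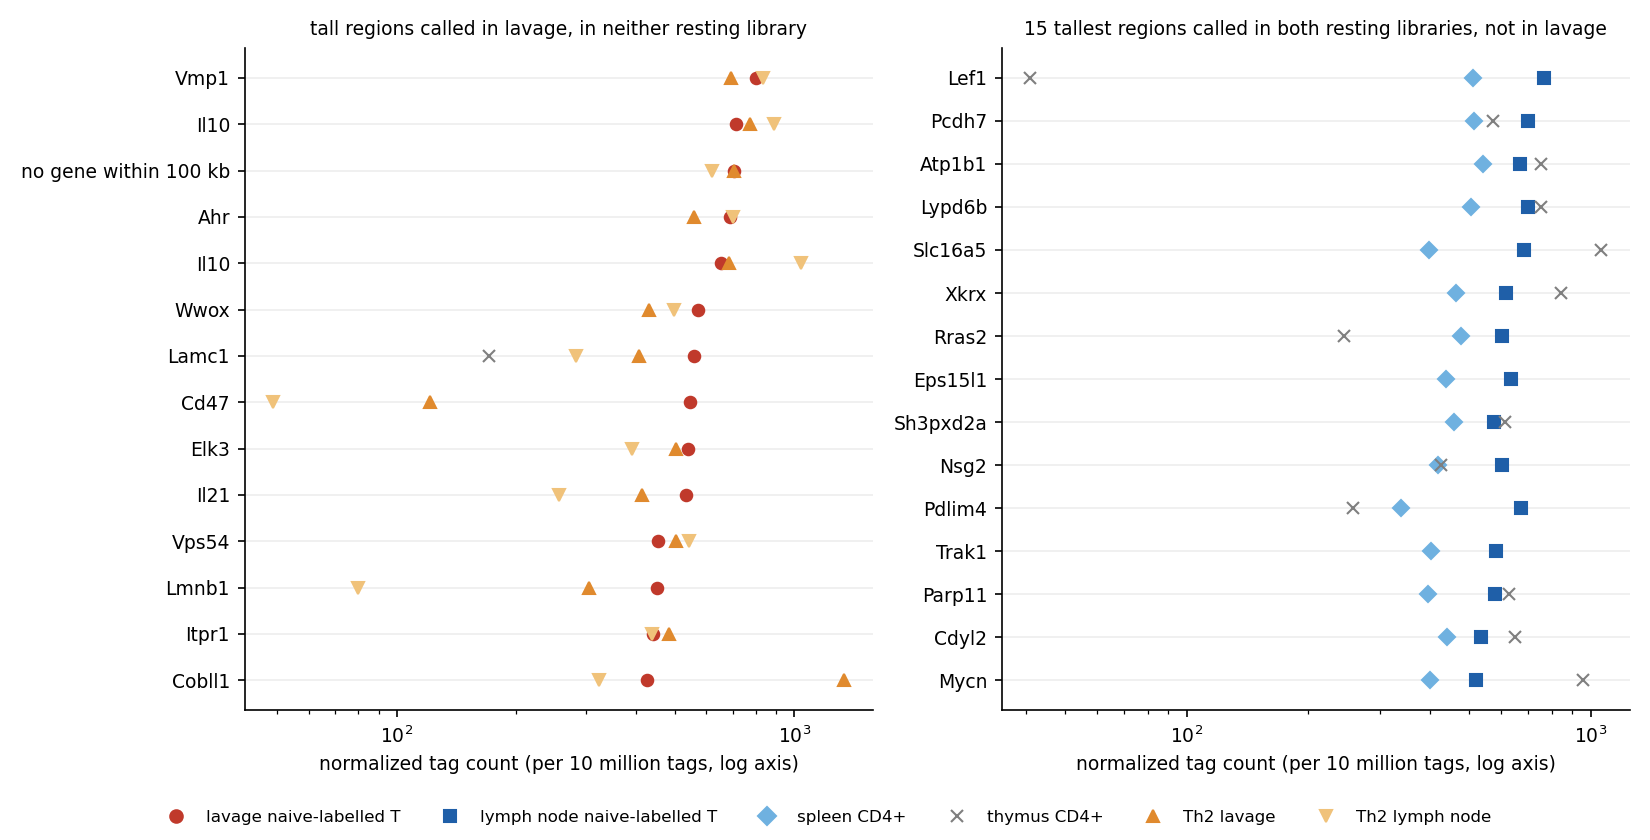
Normalized tag count (log axis) of 14 tall lavage-only regions (left) and the 15 tallest resting-only regions (right) in 6 libraries, each row a region named by its nearest gene, with no symbol where a library had no peak. Lavage symbols appear only on the left (426.3 to 802.5 tags), where Th2 symbols accompany all 14 regions, and resting symbols only on the right, where Th2 libraries have none.

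Regions at the chemokine receptor genes Ccr2 and Ccr3, which lie on the same stretch of chromosome 9, differed. Ccr2, a receptor for monocyte chemoattractants that also marks effector and memory T cells, was called in all 3 libraries at its start site (chromosome 9, 124098763 to 124110603). There it held 1220.8 tags in lavage, 88.2 in lymph node and 73.7 in spleen, and the called peaks were 11840, 1505 and 1520 bp long. Per kb of called peak this was 103 tags in lavage, 58.6 in lymph node and 48.5 in spleen. The lavage value thus stood above both resting values on both scales, but by less per kb. Ccr3 had 3 lavage-only regions of 237.4, 127.9 and 76.1 tags, the tallest over its start site. A region 29071 bp upstream of Ccr2 held 311.8, 98.3 and 75.5 tags, and 3 lavage-only regions near Ccr2 held 65.2, 41.0 and 38.9. The Th2 libraries had peaks at the tallest of these regions, with 1203.1 and 1107.8 tags at the Ccr2 start. The ILC2 libraries had taller peaks there, of 1328.9 and 1655.3 tags, and peaks at 2 of the 3 Ccr3 regions.

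**Figure D2:**
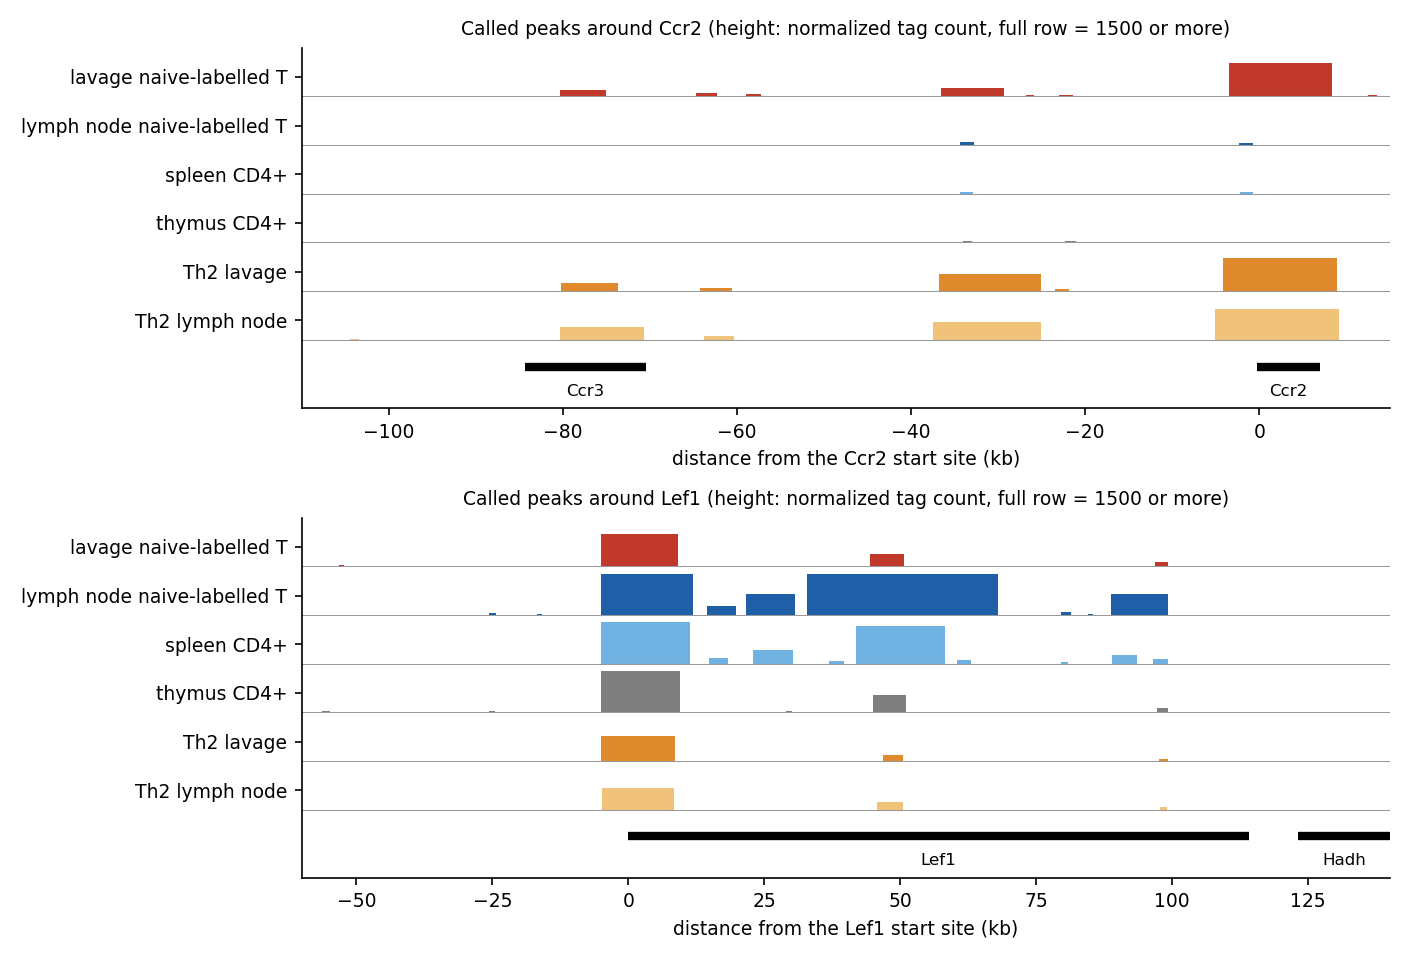
Called peaks by library around Ccr2 (top) and Lef1 (bottom), with distance from each start site in kb, bar width the called length and bar height the normalized tag count (a full row is 1500 or more); black bars are genes. Around Ccr2 of the 6 libraries drawn, which leave out ILC2s, the lavage and Th2 rows are filled and the resting and thymus rows nearly empty, and inside Lef1 the resting rows hold peaks that the lavage row lacks.

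On the resting side, 2 of the 15 tallest regions missing from lavage lay at genes of the naive list, Lef1 and Nsg2. Lef1, which encodes a transcription factor of naive and early T cells, had the tallest (chromosome 3, 131131992 to 131140953), with 765.0 tags in lymph node and 510.0 in spleen. Nsg2 had 3 resting-only regions, the tallest at 601.7 and 418.1 tags. The other 13 of the 15 tallest were nearest to Pcdh7, Atp1b1, Lypd6b, Slc16a5, Xkrx, Rras2, Eps15l1, Sh3pxd2a, Pdlim4, Trak1, Parp11, Cdyl2 and Mycn. Among these, Atp1b1, a subunit of the sodium pump, held 667.1 tags in lymph node and 539.3 in spleen over its start site. Pdlim4 held 671.6 and 339.8 tags, also over its start site. In each of the 15 regions the lymph node value was above the spleen value. Thymus CD4+ cells had a peak in 13 of the 15, with 751.7 tags at Atp1b1 and 41.0 at Lef1. The median resting-only region held 88.6 tags in lymph node and 66.7 in spleen.

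By number of regions, Runx2 led the lavage-only set and Bach2 the resting-only set. Runx2, a transcription factor gene expressed in some effector and memory T cells, had 7 lavage-only and 0 resting-only regions among 12, with the tallest lavage-only ones at 235.3 and 187.7 tags. Its shared region at 44713359 on chromosome 17 held 357.8 tags in lavage, 50.4 in lymph node and 42.0 in spleen. Itpr1, a calcium channel gene, had 6, and Auh, Glb1, Il10, Ptprj and Rbpj had 5 each, Rbpj being the nuclear partner of Notch. Ahr, Arhgap15 and Arid5b had 4 each. Bach2, a repressor that keeps T cells from becoming effectors, had 11 resting-only regions and 1 lavage-only region among 28. The resting-only ones ranged at Bach2 up to 276.3 tags in lymph node and 248.5 in spleen. Arid1b had 9, Cdk19 and Zfand3 8 each, and Cyria, Foxp1 and Itga9 7 each. Foxp1, which holds naive T cells in quiescence, had 0 lavage-only regions among 24. Adgrl2 and Asap1 had 6 each. Long genes can hold more regions, and the counts are not adjusted for length.

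Genes of effector cells leaned to the lavage-only set. The gene lists here and below were chosen with earlier results of these data known, so their shares are a description and not a test. Over all 22535 regions with a gene within 100 kb, 6.37% were lavage only and 19.7% resting only. Of the 123 regions of 35 effector and activation genes, 33 (26.8%) were lavage only and 15 (12.2%) resting only. Maf, a factor of IL-4 and IL-10 producing cells, had 4 lavage-only regions, of 155.5, 110.3, 69.0 and 53.1 tags. Cd44, the adhesion receptor raised on antigen-experienced cells, had 3, of 183.5, 125.0 and 41.8 tags, beside 2 resting-only regions. Prdm1, which encodes the effector factor BLIMP-1, had 3, of 136.2, 58.9 and 41.8 tags, and Nfil3 had 3, of 76.5, 51.8 and 42.6. Ifng had 3, of 112.4, 91.1 and 41.4 tags, none over the gene itself. Some genes of the list went the other way or stayed level: Anxa2, Anxa1 and Cd69 each had 1 resting-only and 0 lavage-only regions, and the start of Id2 held 913.2, 1167.2 and 985.0 tags. When a peak had to cover a larger part of a region to count, 52 of the 123 regions were lavage only and 17 resting only, against 2028 and 5325 of all 23384. With 80 tags required these counts were 13 and 3, against 591 and 1717.

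Memory and residency genes leaned the same way. Of their 101 regions, 29 (28.7%) were lavage only and 10 (9.9%) resting only. Itgae, the CD103 chain that binds epithelial cadherin, had a lavage-only region of 410.4 tags inside the gene, and Itga1 one of 364.9 tags over its start. Of the 2, the Itgae region was also called in both Th2 libraries (158.3 and 105.3 tags), and the Itga1 region in the lavage Th2 library alone of the pair (67.9). Cxcr6, a receptor for CXCL16 in the lung, had 1 shared region, with 1490.0 tags in lavage, 264.5 in lymph node and 261.1 in spleen, and peak lengths of 16890, 5595 and 5993 bp. The 3 shared 2-fold higher regions of Rgs1, a brake on chemokine signalling, held 1010.2, 765.3 and 373.2 tags in lavage against 383.1, 97.5 and 75.6 in lymph node. Cxcr3, a Th1 homing receptor on the X chromosome, held 446.4 tags in lavage, 54.0 in lymph node and 76.9 in spleen, with no peak in either Th2 library. Eomes ran against the list, with 4 resting-only and 0 lavage-only regions, and so did Itga4 (2 and 0) and Bcl2 (2 and 0). The start region of Itga4 held 1692.7, 1589.7 and 1606.8 tags. Of the 101 regions, 45 were lavage only and 12 resting only under the stricter rule on coverage, and 12 and 4 with 80 tags required.

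Helper lineage genes gave lavage-only regions for several lineages at once. The Th2 list had the highest share, 30 of 51 regions (58.8%), against 3 resting-only. Beside the Il10 regions these lay at Pparg (3), Ccr3 (3), Plac8 (3), Maf (4), Nfil3 (3), Il4 (2), Il13 (2), Il1rl1 (2) and Rad50 (2), with 1 at Epas1, a list that overlaps the effector one at Maf and Nfil3. At Il4 the lavage region over the start held 187.7 tags, where the Th2 libraries had 495.0 and 551.8. Il13 had 92.8 and 38.9 tags in lavage. Il1rl1, the IL-33 receptor gene, had 181.4 tags over its start, under the 1512.3 and 1089.2 of the overlapping Th2 peaks, and Pparg 200.2 against 547.9 and 488.6. Gata3 itself was near level, at 1480.4 tags in lavage, 1848.9 in lymph node and 1674.9 in spleen over its start. The Th1 and cytotoxic list had 18 of 60 lavage only (30%) and 12 resting only (20%). Its lavage-only regions included Gzmb (130.0 tags), Gzmk (108.2 and 88.6), Havcr2 (253.3, 102.4 and 94.0) and Tbx21 (169.3). Gzmb also had 2 resting-only regions, and Fasl had 3 beside 1 lavage-only region. The start sites of Gzma and Prf1 were resting only. In lymph node and spleen they held 77.6 and 57.8 tags for Gzma and 170.6 and 122.1 for Prf1. In this list 8 genes had more lavage-only and 5 more resting-only regions. The Th17 list had 14 of 40 (35%), of which Ahr and Il21 held 4 each, against 4 resting-only. The regulatory T cell list had 15 of 48 (31.2%) against 4 resting-only, and the inhibitory receptor list 14 of 46 (30.4%) against 8. Of the 15, Il10 held 5, Ikzf2 4 and Ctla4 3. In the regulatory list 5 genes had more lavage-only regions. The 2 with more resting-only regions were Nrp1 (3 against 1 lavage only) and Lrrc32 (1 against 0). In the inhibitory list 3 genes had more lavage-only and 2 more resting-only regions, among them Tox (6 resting only against 4). The follicular helper list had 8 of 48 (16.7%) against 7 resting-only (14.6%). These counts were near equal, while over all regions with a gene the shares were 6.37% and 19.7%. Of its genes, 2 had more lavage-only and 4 more resting-only regions. Gene lists share members, such as Il10 in the Th2 and regulatory lists.

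Genes of naive and recirculating T cells leaned the other way. Of their 196 regions, 60 (30.6%) were resting only and 7 (3.57%) lavage only, and 19 of the 30 genes had more resting-only than lavage-only regions. Satb1, a chromatin organiser of T cells, had 4 resting-only regions, the tallest at 558.6 tags in lymph node and 360.3 in spleen. Ccr7, the lymph node homing receptor gene, had 3, of 258.8, 140.2 and 87.8 tags in lymph node. Dapl1 had 3 and no other region, the tallest at 583.4 and 333.3 tags. Tgfbr2 had 6 resting-only regions and 1 lavage-only region. Not every gene of the list leaned: S1pr1, the receptor for leaving lymph nodes, had 1 of each, and Il7r held 931.6, 1384.2 and 1172.4 tags over its start with no resting-only region. With equal numbers of peaks the list had 36 resting-only and 14 lavage-only regions, and with 80 tags required 27 and 1. T cell receptor and identity genes had 2 lavage-only and 7 resting-only regions among 54, cytokine receptor genes 8 and 12 of 69, and cell cycle genes 6 and 3 of 36. Housekeeping genes had 0 and 0 of 20. ILC2 marker genes had 16 and 12 of 52, and chemokine receptor genes 11 and 6 of 42.

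**Figure D3:**
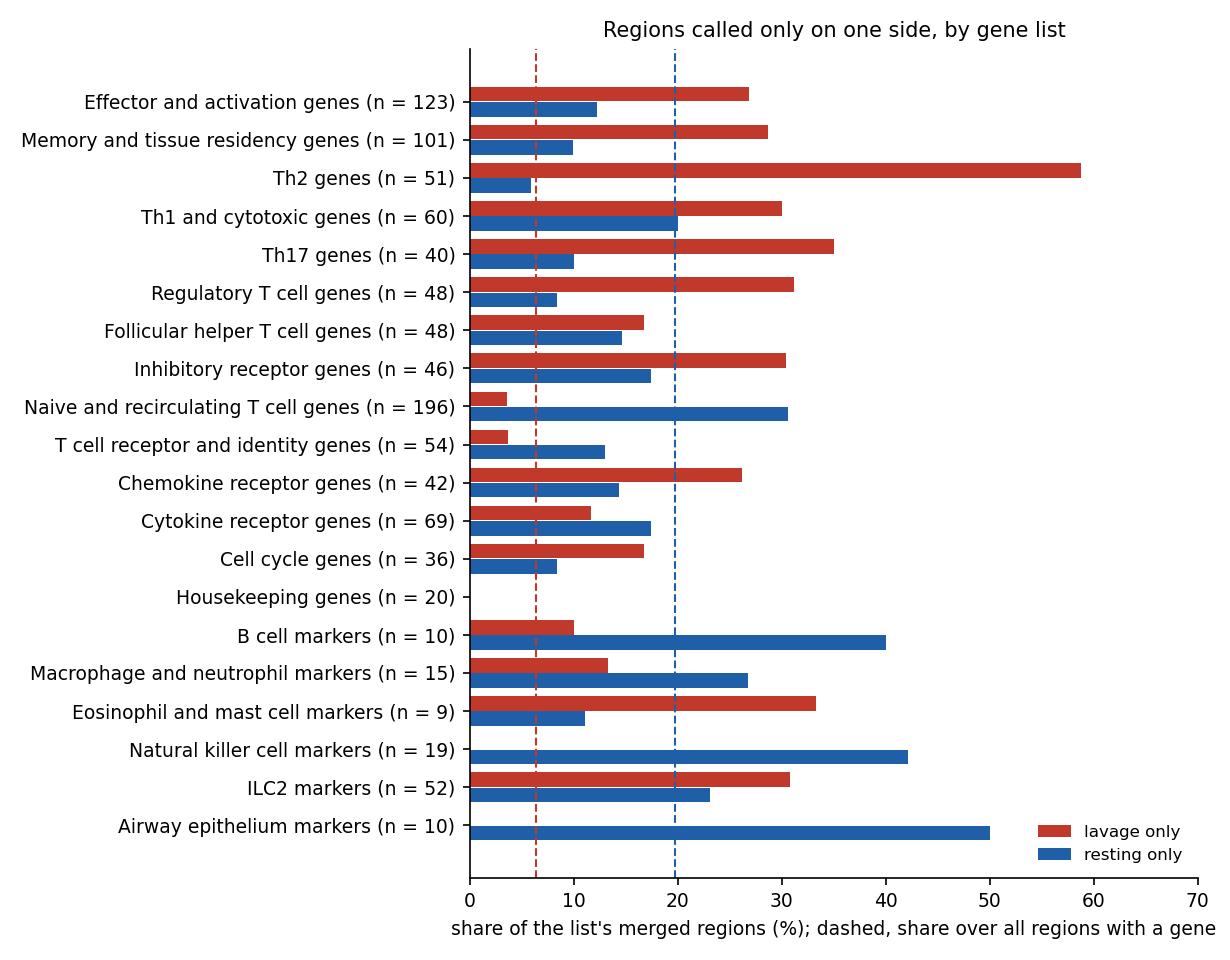
Share of the merged regions of each gene list that were called only in lavage (red) or only in both resting libraries (blue), with the number of regions per list and dashed lines at the share over all regions with a gene (6.37% and 19.7%). Bars of the effector, memory and helper lineage lists pass the red line. So do others, such as the cell cycle (16.7%), ILC2 (30.8%), myeloid (13.3%) and B cell (10%) lists. The naive list passes the blue line (30.6%) and stays short of the red one (3.57%), as do the natural killer and epithelium lists. The T cell identity (3.7%) and housekeeping (0%) lists are also short of the red line. The B cell (40%), myeloid (26.7%), ILC2 (23.1%) and Th1 (20%) lists pass the blue line as well.

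At regions called in all 3 libraries, many of the same genes differed in tags and in called length. Tags were set on a log2 scale with each library's median at 0, since the medians lay at 7.44 in lavage, 7.94 in lymph node and 7.73 in spleen. On that scale 793 of 14691 regions (5.4%) were at least 2-fold higher in lavage than in each resting library, and 729 (4.96%) at least 2-fold lower. Between lymph node and spleen only 46 regions (0.313%) were 2-fold apart, with an SD of 0.20 over all shared regions. Without the centring the split became 389 higher and 1397 lower. The values just inside the bound were 351.5, 216.1 and 215.4 tags at S100a3 and those just outside 272.1, 165.3 and 166.9 at LOC115489489. Tags are summed over the called peak, and the peak was longer in lavage than in both resting libraries at all 793 higher regions and shorter at all 729 lower ones. The median called length at the higher regions was 4496 bp in lavage, 2008 bp in lymph node and 1798 bp in spleen, and at the lower ones 1279, 3097 and 2927 bp. Tags per kb of called peak were centred in the same way. Their medians lay at 58.7 in lavage, 85.5 in lymph node and 76.9 in spleen. Counts per kb without centring were not made. On the centred per kb scale, only 66 regions were 2-fold higher and 3 lower. Still, 747 of the 793 stayed above both resting libraries and 562 of the 729 below both. Most of the difference in tags thus went with a difference in called length.

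**Figure D4:**
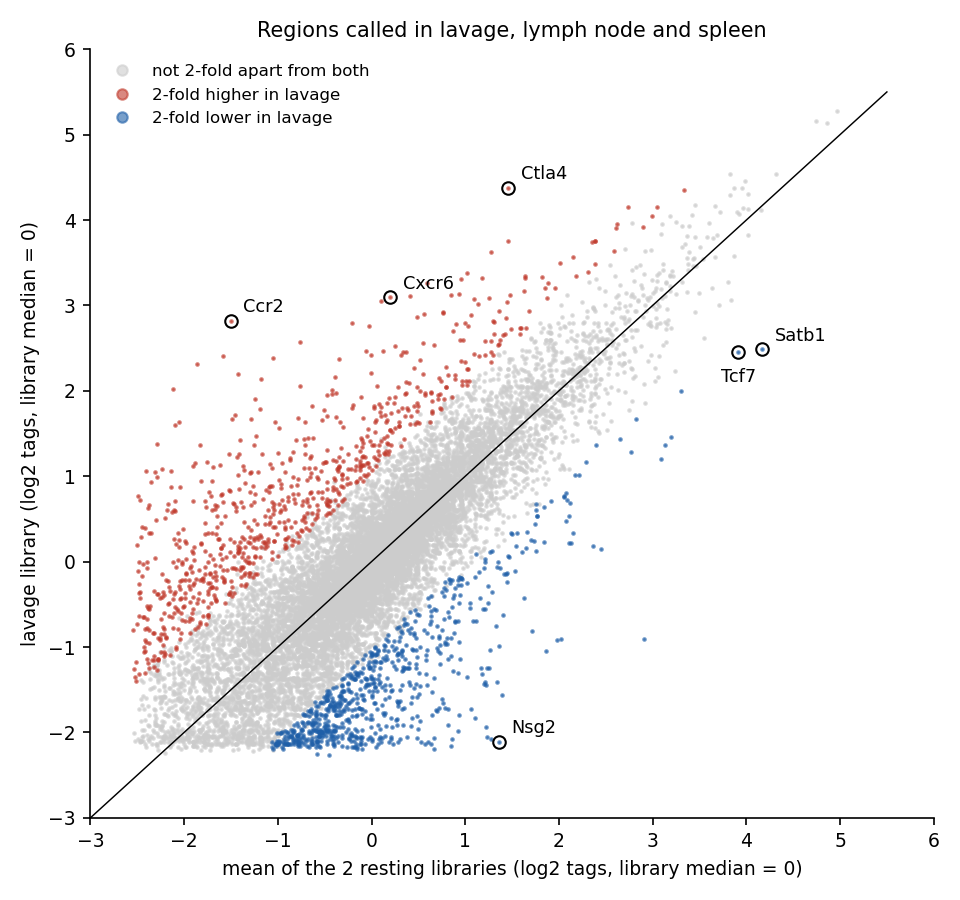
Lavage log2 tags against the mean log2 tags of the lymph node and spleen libraries at the 14691 shared regions, each library's median set to 0, with the 793 regions at least 2-fold higher in lavage in red, the 729 lower in blue and the line of equality. Ctla4, Cxcr6 and Ccr2 lie far above the line and Nsg2, Tcf7 and Satb1 below it.

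The 10 largest differences at shared regions lay at 10 genes. After Ccr2, whose centred log2 difference to the nearer resting library was 4.30, came Fgl2 at 4.15, an immunosuppressive fibrinogen-like protein gene, with 859.7 tags in lavage, 67.0 in lymph node and 59.2 in spleen. Cdk6, a kinase of cell cycle entry, held 702.1, 41.8 and 66.2 tags (3.70). Icos, a costimulatory receptor gene, had 4 of its 4 shared regions 2-fold higher, one of 452.2, 42.7 and 51.3 tags (3.43) lying 23827 bp outside the gene. M6pr (3.64), Atxn1 (3.62), Inpp4b (3.56), Rtkn2 (3.56), Ltb4r1 (3.40) and Runx2 (3.33) completed the 10 largest. Ctla4, an inhibitory receptor gene also high in regulatory T cells, had the longest region of the higher set, 43571 bp, with 3614.8 tags in lavage, 619.1 in lymph node and 642.4 in spleen. Its 3 lavage-only regions held 144.2, 113.3 and 104.1 tags. Ikzf2, the gene of the regulatory T cell factor Helios, held 1268.5, 285.6 and 358.5 tags at its region of 14793 bp. On the centred per kb scale, 4 of the 10 largest stayed past 2-fold, and the other 6 did not. The 4 were Ccr2 (1.36), Rtkn2 (1.28), Fgl2 (1.24) and Inpp4b (1.04). Cxcr6 (1.41) and S100a6 (1.18), outside the 10, also stayed past 2-fold on that scale. Before centring, tags per kb in lavage and lymph node were 103 and 58.6 at Ccr2 and 88.4 and 51.6 at Rtkn2. They were 82.6 and 44.2 at Fgl2 and 79 and 54.2 at Inpp4b, so each of the 4 was under 2-fold over lymph node.

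Among the lower regions, one without a gene within 100 kb led (chromosome 15, 60163491 to 60181416). It held 92.4 tags in lavage, 2036.6 in lymph node and 1459.5 in spleen, a centred log2 difference of -3.69, and none of the Th2, ILC2 and thymus libraries had a peak there. Nsg2 followed over its start, with 40.1, 696.3 and 496.0 tags (-3.33). Zfp608 (-3.33), Rere (-3.19), Mfhas1 (-3.07), Bcl11a (-2.91), Dtx1 (-2.88), Uck2 (-2.86), Itgb3 (-2.83) and Tdrp (-2.77) completed the 10. None of the 10 was 2-fold lower on the centred per kb scale. Dtx1, which encodes the Notch regulator Deltex, held 91.5 tags in lavage, 986.0 in lymph node and 825.1 in spleen. Tcf7, the gene of TCF1, held 945.0 tags in lavage, 3964.3 in lymph node and 2984.3 in spleen over its start. Satb1 held 971.7, 4986.9 and 3387.1 tags in a region of 37301 bp. Lef1 differed along its length, since the region over its first start held 1157.3, 2449.4 and 1812.0 tags (-0.35) and the one of 35050 bp further in held 447.6, 2510.7 and 1606.8 (-1.55).

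By list, 29 of 66 shared regions of effector genes were 2-fold higher and 2 lower, against 5.26% and 4.94% of all shared regions with a gene. For memory and residency genes the counts were 19 and 4 among 48, for the regulatory list 8 and 1 among 23, for chemokine receptors 8 and 2 among 22 and for naive genes 5 and 29 among 91. The median centred log2 difference to the mean of the resting libraries was 1.01 for the effector list, 0.73 for the memory list and -0.51 for the naive list, and 0.01 over all shared regions with a gene. Per kb these medians were 0.36, 0.37 and 0.02, the naive list changing sign, and without centring 0.61, 0.33 and -0.91 where all regions lay at -0.39. The Th2 list had a median of 0.28, of 0.23 per kb and of -0.12 without centring. The Th2 list thus had more lavage-only regions (30) than shared ones (16).

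Tags were tested where all 7 libraries of naive-labelled T, spleen, Th2 and ILC2 cells had a peak, with the spread taken from the lymph node and spleen pair, the Th2 pair and the ILC2 pair. The lone lavage library is assumed to vary like these, and the fit had 3 residual degrees of freedom. Of 11595 such regions, 1364 (11.8%) were higher in lavage and 707 (6.1%) lower (limma, Benjamini-Hochberg adjusted p under 0.05), which is 65.9% of calls higher, and without centring 692 and 2528 (21.5% higher). Per kb of called peak the counts were 1612 and 713. Without the lymph node library they were 584 and 114, and without the spleen library 688 and 182. Without a Th2 library they were 2094 and 1689 (lavage Th2) or 2082 and 1677 (lymph node Th2). Without the lavage ILC2 library they were 1047 and 473, and without the lymph node one 1037 and 461. The smallest p lay at Ccr2 (log2 difference 4.27, SE 0.13, limma adjusted p = 0.00014; 1.41 per kb). Cdk6 (4.26), Ltb4r1 (3.42), Runx2 (3.31) and Atxn1 (2.65) shared that adjusted p in the limma fit. Per kb these were smaller, at 0.76 for Cdk6, 0.71 for Ltb4r1, 0.56 for Runx2 and 0.55 for Atxn1. The 5 decreases of smallest p were at Hes1 (-2.80), Igfbp4 (-2.55), Mical3 (-2.30), Gramd4 (-1.54) and Rere (-1.41). Per kb they were -0.44 at Igfbp4, -0.62 at Mical3, -0.76 at Gramd4 and -0.34 at Rere. At Hes1, a Notch target, the value was 0.02 per kb (limma adjusted p = 0.93), with 43.5 tags in lavage, 406.6 in lymph node and 365.5 in spleen.

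In this fit 32 of 56 effector regions were higher and 1 lower, 20 and 1 of 34 memory regions, 11 and 0 of 15 regions of the regulatory list and 4 and 20 of 50 naive regions. Ctla4 was higher (2.91, SE 0.14, limma adjusted p = 0.00029), as were Prdm1 (1.37), Cxcr6 (2.85) and Il2ra (1.44), which encodes the IL-2 receptor alpha chain. Tcf7 was lower (-1.51, SE 0.28, limma adjusted p = 0.017), and so were Satb1 (-1.73) and Ccr7 (-1.94 at its gene). Gata3 (0.10, SE 0.10, limma adjusted p = 0.53) and Cd3e (0.15, SE 0.12, limma adjusted p = 0.44) did not pass. Il7r did not pass either (-0.10, SE 0.09, limma adjusted p = 0.47). Housekeeping genes had 1 of 18 higher and 0 lower. For the same members, the limma counts and the 2-fold counts rest on the same tags and are not separate evidence. Those tags are summed over the called length, and limma counts by list were not made per kb. At the 91 shared naive regions the centred per kb median was 0.02, with 0 regions 2-fold lower and 1 higher. The effector and memory medians per kb were 0.36 and 0.37. The lists were chosen with earlier results of these data known.

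The libraries that did not define the sets were then read at the same places. Of the 1536 lavage-only regions, 926 (60.3%) had a peak in the lavage Th2 library, 755 (49.2%) in that of the lymph node and 692 (45.1%) in both. Over all 23384 regions the 3 shares were 60.3%, 59.2% and 56.1%, so the lavage-only shares were at or below those of all regions. Peaks in both ILC2 libraries covered 879 (57.2%), and thymus CD4+ cells 117 (7.62%). Of the 4748 resting-only regions, 104 (2.19%) were called in both Th2 libraries, 1590 (33.5%) in both ILC2 libraries and 3190 (67.2%) in thymus. Over all regions the shares were 56.1% for both Th2 libraries, 71.3% for both ILC2 libraries and 75.6% for thymus. From the other side, lavage-only regions made up 5.28% of the 13118 merged regions called in both Th2 libraries, and resting-only regions 0.793%. The 2-fold higher shared regions were called in both Th2 libraries at 91.9% and the lower ones at 31.3%, against 82.3% of all shared regions. Where both Th2 libraries had a peak, the lavage-only regions had a median of 94.5 tags in lavage, 108.2 in the lavage Th2 and 93.5 in the lymph node Th2 library. Lavage-only regions in neither Th2 library had a median of 53.5 tags.

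**Figure D5:**
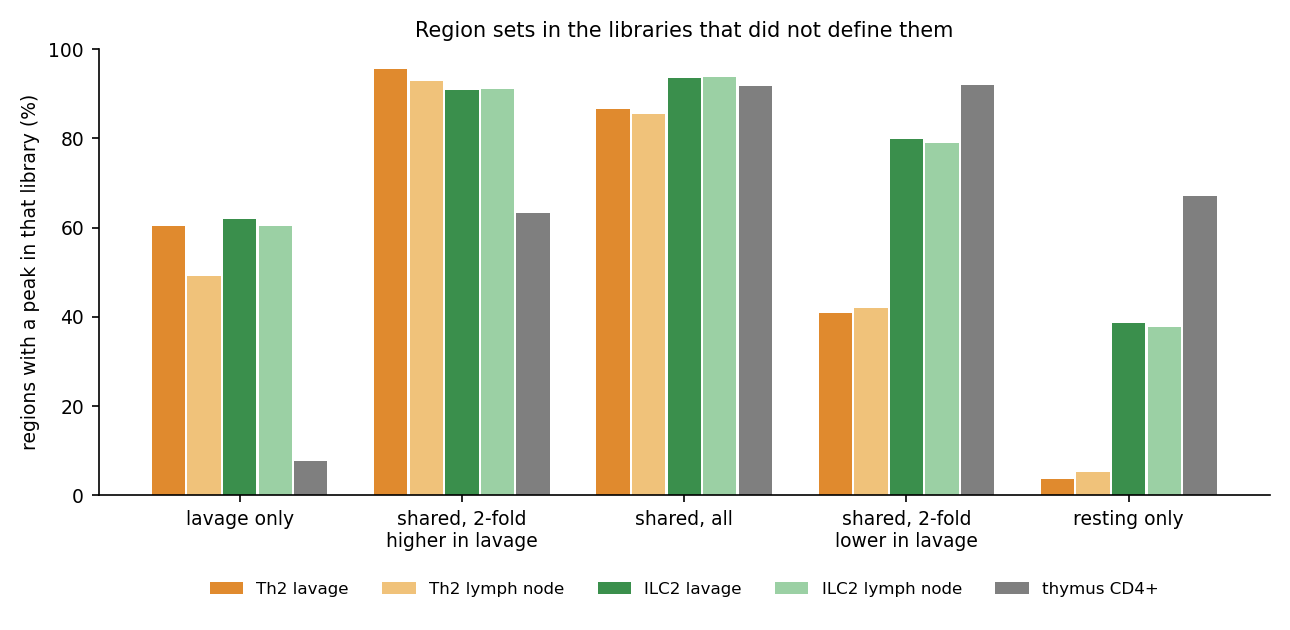
Share of each region set with a peak in the 5 libraries that took no part in defining it. Thymus falls from 67.2% of resting-only to 7.62% of lavage-only regions, whereas the lavage Th2 library runs from 3.64% to 60.3%, its share over all merged regions also being 60.3%.

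A smaller group was called in the lavage library and in none of the 7 others, 296 of 1536 (19.3%). Of the resting-only regions 1004 (21.1%), and of all merged regions 10.3%, had no peak in the 5 libraries that did not define the sets. The tallest lavage members of this group with a gene within 100 kb were chosen after their values were seen. They lay at the start of Cd80 (263.3 tags), near Nsmaf (232.8) and at the start of Pvrig (227.8), which encodes an inhibitory receptor. Next came regions in Stk39 (206.0) and at the start of Ifi211 (201.4). Parts of the Ifng and Gzmk loci also belong here, with regions of 112.4 and 91.1 tags at Ifng and 108.2 at Gzmk. The region 49589 bp from Cd47 was called in the Th2 libraries as well, with 546.3 tags in lavage, 121.6 and 48.9 in the Th2 libraries and no peak in ILC2s or thymus.

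The 2 sets also differed in where they lay. Only 41 lavage-only regions (2.67%) held a start site, against 724 resting-only (15.2%), 7764 shared (52.8%) and 8686 of all regions (37.1%). A further 52.7% of lavage-only regions lay inside a gene and 38.1% between genes within 100 kb, and the resting-only shares were 50.4% and 28%. The median length was 1525 bp for lavage-only and 1570 bp for resting-only regions, and 3180 bp for shared ones. The X chromosome held 19 lavage-only (1.24%) and 138 resting-only regions (2.91%). Of the lavage-only regions, 11 had a resting peak between 500 and 1000 bp away and 119 (7.75%) one within 2500 bp. A further limit is that 425 (27.7%) had under 50 tags, close to the calling level.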

How the data were processed

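H3K4me2 chromatin immunoprecipitation with tagmentation-based libraries was profiled in 8 lymphocyte libraries with peak lists, next to 2 IgG libraries. Per the submitters' processing notes the tools were Bowtie and HOMER with mm10. Each library had its own peak call in region mode, per the file headers, with a peak size of 1000 bp, a minimum distance of 2500 bp, an FDR of 0.001 and at least 4.0-fold enrichment over IgG. The deposited signal is the authors' normalized tag count of each peak, scaled to 10000000 tags per library. The authors' fold (ratio) over IgG was not used in the results.

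Peaks of the 3 libraries within 500 bp were merged, and the tags of a library were summed within a region. Regions took the closest gene within 100 kb (protein-coding genes and antigen receptor constant genes of RefSeq GRCm38.p6). Genes were named by a fixed rule: the 15 tallest regions of each set, the 10 genes with most regions, the 10 largest differences and the 5 smallest limma p-values in each direction, and members of gene lists. The members and lists were chosen with earlier results of these data known. Log2 tags, and log2 tags per kb where given as differences or counts, were centred on each library's median, with no pseudocount. limma 3.58.1 in R 4.3.3 (eBayes with trend, Benjamini-Hochberg) was run over the 11595 regions called in all 7 libraries, and it and the merging were tested on simulated data. Counts and intervals used Python 3.11.15, numpy 2.4.6 and scipy 1.17.1, and figures matplotlib 3.10.9. Alternatives covered merging, tag minimum, peak number, coverage, centring, length, fold, the site as a block and each library left out. Autosomes alone were added after seeing the data. A few genes and regions are not reported here.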

Additional observations from a re-analysis of the deposited data

How the results depend on the processing

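Among lavage-only and resting-only counts, a minimum of 80 tags gave 591 and 1717, equal numbers of peaks 2583 and 2173, and thymus added to the resting side left 3134 resting-only regions. Leaving out a resting library gave 1669 to 1757 lavage-only and 5047 to 6662 resting-only regions. Merging at 0 bp gave 1542 and 4753 and at 2500 bp 1344 and 4446. For shared regions, the 2-fold counts higher and lower were 66 and 3 per kb, 389 and 1397 without centring, 142 and 76 at 4-fold and 434 and 218 with at least 80 tags in each library. Leaving out a resting library gave 913 to 1008 and 775 to 935. For the limma counts, no centring gave 692 and 2528, and the 3 libraries alone gave 3429 and 3358, with the spread taken from the 2 resting libraries. Leaving out each library gave 584 to 2094 higher and 114 to 1689 lower. With the site as a replicate block the counts were 1190 and 735. The labels' numbers stand for the site, and the lavage minus lymph node differences of Th2 cells and ILC2s correlated at 0.26 over 11595 regions, which is a description of 2 pairs. The difference at Hes1 was 0.02 per kb. The cause of these moves was not tested. Among named heights, 175 values under alternatives were counted as unchanged, 49 as moved and 1 as reversed. For shared regions, unchanged meant a shift smaller than the SD between lymph node and spleen (0.20). For limma values it meant only the same sign and a pass of the threshold, whatever the size. Ccr2, at 4.27 and at 1.41 per kb, was thus counted as unchanged. Among list counts 277 were counted as unchanged and 83 as moved. Depth limits what a missing call means, since a library's minimum was about 40 tags.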
